A study of Mus musculus with 18 samples.

Results

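The genes described here are those of glutathione, thioredoxin and peroxide defence in mouse testis. They were chosen by symbol: the glutathione transferases of the alpha, kappa, mu, omega, pi and theta classes, the microsomal transferases, the glutathione peroxidases, the peroxiredoxins, the superoxide dismutases, every symbol that begins with Txn, and Cat, Gsr, Gclc and Gclm. The symbol rule uses no measured value, but to be tested a probe had to be detected, at a detection p below 0.01, on 4 arrays or more. The array had 104 probes for 60 such genes, and 73 probes of 51 genes passed, out of 10798 genes tested in all. Gclc, Gpx5, Gstm3, Gstp3, Txndc9, Txndc11, Txndc16, Txndc17 and Txnl1 had a probe that did not pass, and Gsr, Prdx5 and Prdx6 were not analysed here.

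Total RNA of testis from mice 12 weeks old, whose strain is an FVB/N x C57/BL6 cross, was labelled with biotin and hybridised to Illumina bead arrays, 1 array per sample. The 18 arrays form 4 genotypes: 4 arrays labelled Wild type, 4 labelled Fshr mutant, 5 labelled Lhr null and 5 labelled Fshr mutant/Lhr null, the last called the double mutant below. Fshr is the receptor for follicle stimulating hormone on Sertoli cells and Lhr that for luteinizing hormone on Leydig cells; in the column headers the allele is Fshr-CAM, and no source used here says what drives it or what it does. Nothing in the labels says that each array had its own animal; p-values therefore cover only the spread seen between arrays, which may be technical. The series title asks for FSH-dependent and LH-dependent transcripts and for crosstalk between both pathways.

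Cells remove superoxide with superoxide dismutases, and the peroxide that results with catalase, glutathione peroxidases and peroxiredoxins. Glutathione peroxidases are recharged by glutathione and peroxiredoxins by thioredoxin, and thioredoxin in turn by thioredoxin reductases, while glutathione transferases couple glutathione to reactive lipids and foreign compounds. The testis adds its own forms: Txndc2 and Txndc8 encode thioredoxins of spermatids, Txnrd3 a reductase of male germ cells that also handles glutathione, and Gpx4 a lipid peroxidase that hardens into the sheath around sperm mitochondria. Leydig cells, which make testosterone with cytochrome P450 enzymes, are known for abundant glutathione transferases.

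One array stands apart from the group it is labelled with. On replicate 2 of the arrays labelled Fshr mutant/Lhr null, called the doubted array below, the brightest Fshr probe had a log2 intensity of 5.71. Wild type arrays spanned 5.17 to 5.88 and the other 4 double mutant arrays 8.48 to 9.27. That probe was also high in Fshr mutant arrays, at 8.47 to 8.77, and in Lhr null arrays, at 7.60 to 8.37, which the labels give no mutant Fshr allele. On a second detected Fshr probe the doubted array, at 5.68, lay within the 5.45 to 6.27 of the other 4. The doubted array had a mean level of 5 Leydig cell markers of 8.97, against 7.10 to 7.38 on the other 4, 9.07 to 9.85 in wild type and 6.50 to 6.70 in Lhr null. Some results of the double mutant are therefore also given without it. The number of detected probes per array was 15482 to 18950 of 45281. The median log2 difference of all genes between Lhr null and wild type was 0.21 with quantile normalization and 0.02 with cyclic loess, and that of the 51 defence genes was 0.17 and 0.02, so small rises are read against that shift.

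Lhr null testes had lower transcript levels of both sperm thioredoxins and of a group of other defence enzymes. Levels were higher for several glutathione transferases and for 3 of the 4 tested peroxiredoxins, Prdx2 among them on only 1 of its 3 probes. At an adjusted p under 0.05 (limma, Benjamini-Hochberg over all genes tested), 37 of the 51 genes differed from wild type, a share near the 71.2% of all genes. Of these, 22 were higher, against 44.2% of all genes, and 15 lower, against 27.0%. The split of higher and lower was 16 and 17 with cyclic loess, 16 and 16 with median scaling and 15 and 15 with no normalization between arrays. The sign of 36 of the 37 differences was the same under all 3 of these scalings, that of Sod2 turned, and 25 of the calls held under all 3. The plot of all members by family shows both mutant groups against wild type.

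**Figure D1:**
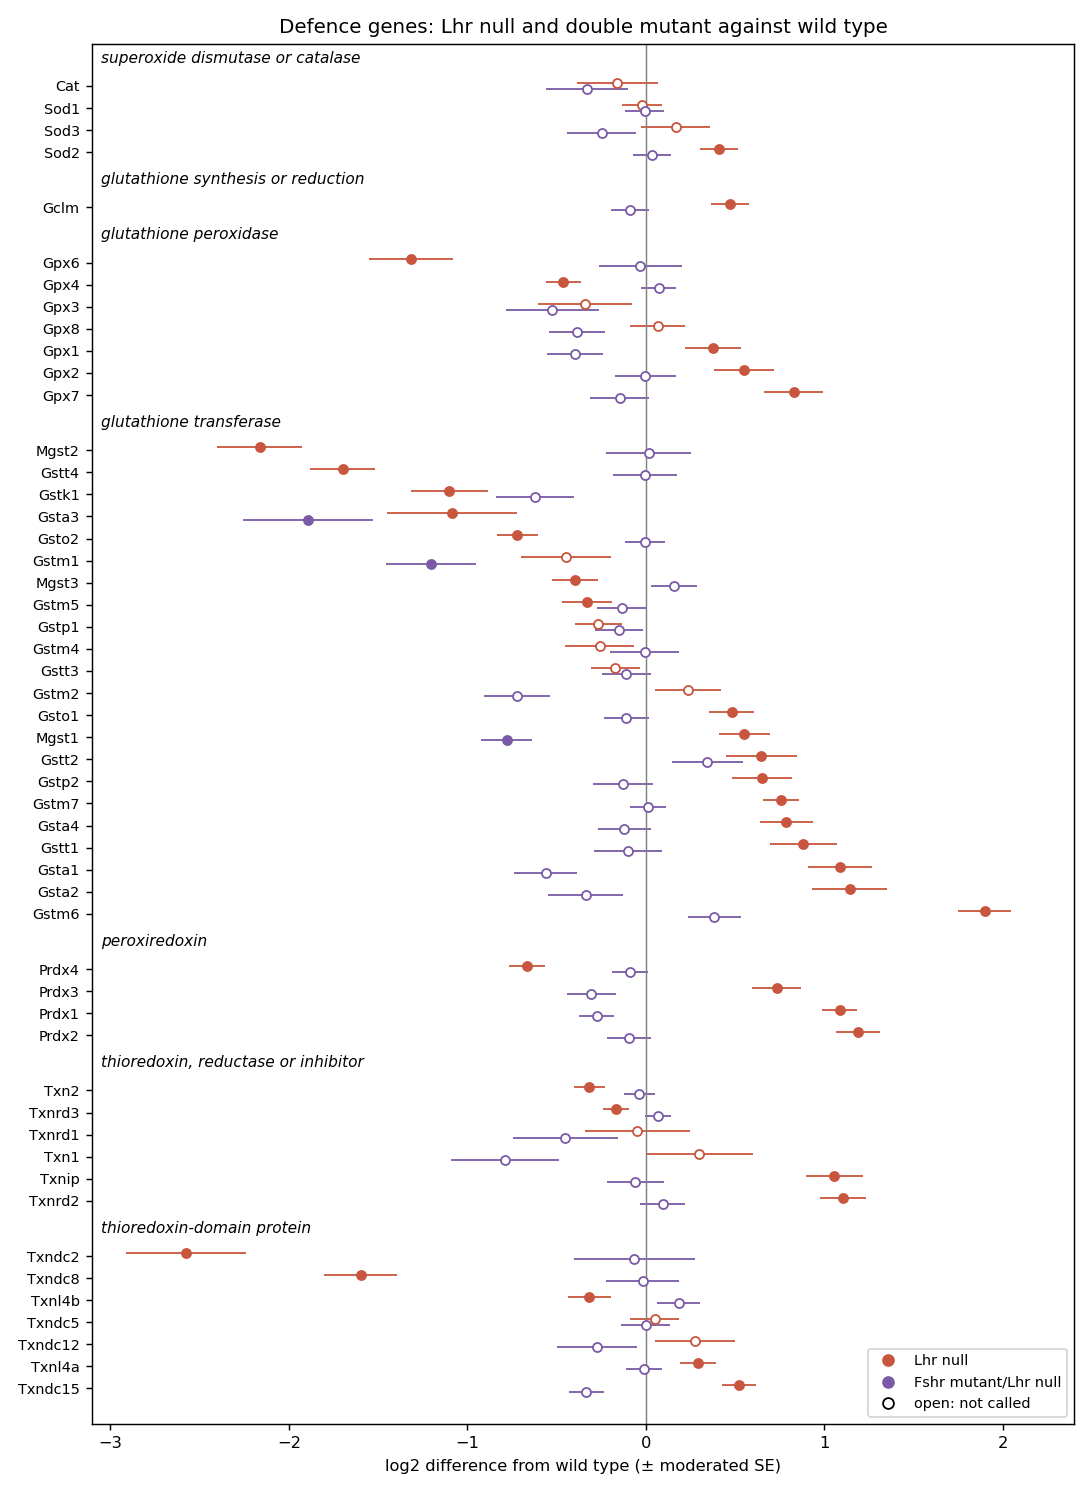
Log2 difference from wild type of each of the 51 tested defence genes, by family, with bars of 1 moderated SE; red points are Lhr null (5 arrays), purple points the double mutant (5 arrays), wild type has 4 arrays, and filled points are called at an adjusted p under 0.05. Of the red points 37 are filled, and of the purple points only Gsta3, Gstm1 and Mgst1.

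Txndc2, the thioredoxin of the spermatid tail sheath, had log2 levels of 12.70, 12.90, 12.87 and 12.86 on the wild type arrays and of 12.75, 12.85, 12.89 and 12.80 on the Fshr mutant arrays. On the Lhr null arrays its level was 11.74, 10.74, 10.23, 9.33 and 9.25. On the double mutant arrays it was 12.68, 12.83, 12.73, 12.85 and 12.76. Every Lhr null array lay below every array of the other 3 groups, and the Lhr null arrays were spread over a wider range than all others together. The difference of Lhr null from wild type was -2.58 ± 0.34 (SE, log2), a 5.96-fold lower level, with an adjusted p of 2.48e-06.

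Txndc8, a thioredoxin linked to the acrosome of spermatids, showed the same order. Its levels were 12.37, 12.71, 12.65 and 12.36 in wild type, and 11.77, 11.17, 10.74, 10.32 and 10.62 in Lhr null. They were 12.46, 12.37, 12.39, 12.82 and 12.48 in the double mutant and between 12.42 and 12.55 in Fshr mutant arrays. Again Lhr null overlapped no other group, and replicate 1 was the least low of its group, as for Txndc2. The difference from wild type was -1.60 ± 0.21 (SE, log2), a 3.03-fold lower level (adjusted p 1.93e-06).

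In whole testis RNA, fewer cells of a type and less RNA per cell cannot be told apart. The markers of elongating spermatids moved with the sperm thioredoxins: 8 of 8 tested markers were lower in Lhr null, with a median log2 difference of -2.72. Their mean level was 10.07 to 11.98 on Lhr null arrays, against 13.13 to 13.26 in wild type and 13.07 to 13.19 in the double mutant. Of the round spermatid markers, 5 of 5 were lower, and 5 of 6 tested spermatogonial markers were higher. Of 7 tested Sertoli cell markers 6 were higher and 1 lower in Lhr null, with a median of 1.51, and the 2 tested myoid cell markers were both higher, with a median of 1.14. The 8 epididymal markers had no tested probe. The part of cell numbers in the changes of the defence genes was not tested.

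**Figure D2:**
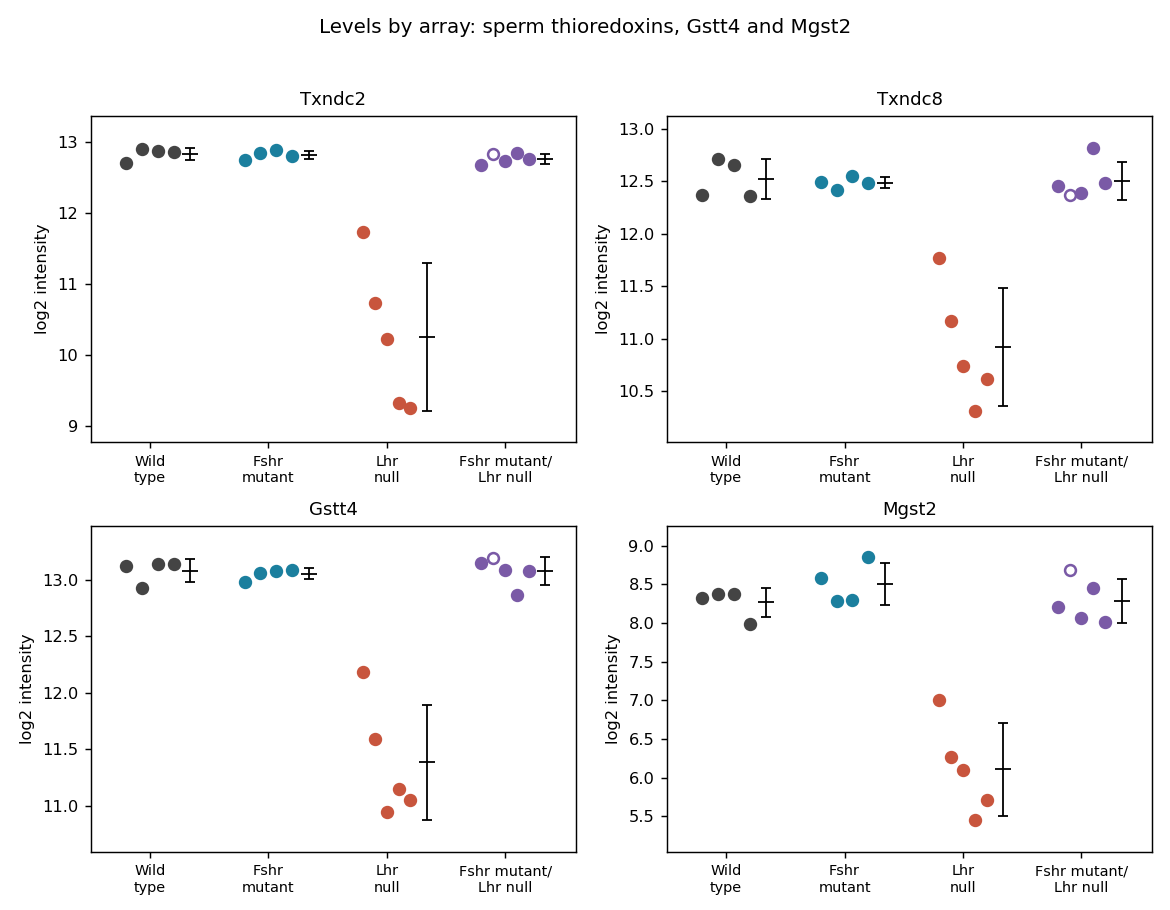
Log2 intensity of Txndc2, Txndc8, Gstt4 and Mgst2 on each of the 18 arrays, by genotype; each point is 1 array, the open point is the doubted array, and the bars are the group mean ± SD. In all 4 panels the 5 Lhr null arrays lie below every other array.

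Of the transferases, Mgst2, a membrane enzyme known for making leukotriene C4, and Gstt4, a theta class enzyme, were the farthest below wild type. Mgst2 was at 8.33, 8.38, 8.38 and 7.99 in wild type and at 7.0, 6.27, 6.10, 5.45 and 5.70 in Lhr null. It was at 8.20, 8.69, 8.06, 8.45 and 8.02 in the double mutant. Gstt4 was at 13.12, 12.93, 13.14 and 13.14 in wild type and at 12.19, 11.59, 10.95, 11.14 and 11.05 in Lhr null. For neither gene did Lhr null overlap another group. Mgst2 differed from wild type by -2.16 ± 0.24 (SE, log2; 4.48-fold lower) and Gstt4 by -1.70 ± 0.18 (SE, log2; 3.25-fold lower), with adjusted p of 3.25e-07 and 2.43e-07. Gsto2, an omega class enzyme that can reduce dehydroascorbate, was at 11.98 to 12.22 in wild type and at 11.08 to 11.77 in Lhr null, with no overlap and a difference of -0.72 ± 0.11 (SE, log2).

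Among peroxidases, Gpx6 fell from 6.39 to 7.07 in wild type to 6.0, 5.32, 4.59, 5.75 and 5.35 in Lhr null, where it was detected on 3 of 5 arrays. The difference was -1.32 ± 0.23 (SE, log2; adjusted p 6.82e-05), and the groups did not overlap. Prdx4, the peroxiredoxin of the endoplasmic reticulum, was at 13.05, 13.09, 13.08 and 13.04 in wild type and at 12.50, 12.53, 12.57, 11.97 and 12.43 in Lhr null, a difference of -0.67 ± 0.10 (SE, log2; adjusted p 1.36e-05). It moved against the 3 other tested peroxiredoxins, which were higher. Txnrd3, the germ cell reductase, differed by only -0.17 ± 0.07 (SE, log2), with an adjusted p of 0.043, and 15 of 31 alternatives ended that call.

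Gpx4 was read by 3 probes whose differences varied in size. For the brightest, the level was 14.29, 14.19, 13.99 and 13.93 in wild type and 13.81, 13.64, 13.62, 13.41 and 13.71 in Lhr null. For the probe ILMN_3100812 it was 12.07, 11.77, 12.26 and 12.17 in wild type and 11.63, 11.16, 10.79, 11.43 and 11.16 in Lhr null. For ILMN_3027761 it was 11.18, 11.16, 11.28 and 11.41 in wild type and 9.71, 9.0, 8.11, 7.92 and 8.15 in Lhr null. On all 3 probes every Lhr null array was below every wild type array, by very different amounts. The differences were -0.46 ± 0.10, -0.83 ± 0.13 and -2.68 ± 0.26 (SE, log2), in that order. The call of the brightest probe was lost with cyclic loess, with an adjusted p of 0.126. The size of its difference depended on the scaling. It was -0.18 with cyclic loess, -0.78 with median scaling and -0.79 with no normalization between arrays. Quantile normalization sets values by rank, and at this high level 4 of the 18 arrays shared a value with another array. The part of the scaling in the unequal sizes was not tested. The Gpx4 gene is known to give cytosolic, mitochondrial and nuclear forms, and the sources used here do not say which form each probe reads.

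**Figure D3:**
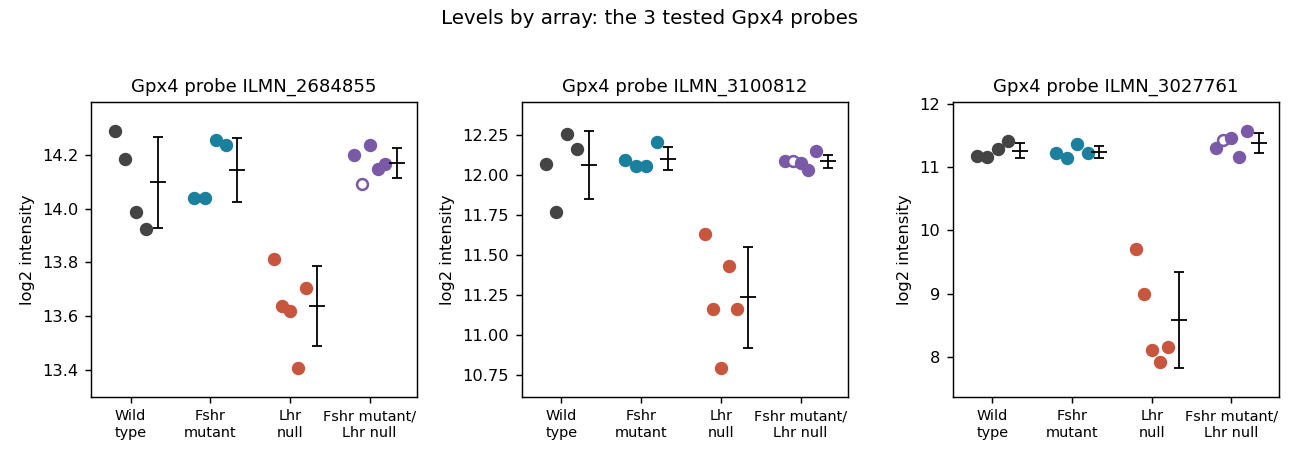
Log2 intensity of the 3 tested Gpx4 probes on each of the 18 arrays, by genotype, each panel with its own axis; points are arrays, the open point is the doubted array, and bars are the group mean ± SD. The Lhr null arrays are lowest on all 3 probes, and on ILMN_3027761 they span 7.92 to 9.71.

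The genes that were higher in Lhr null came from several families. They were higher on the same arrays as the Sertoli, myoid and spermatogonial markers. The mean Sertoli marker level was 9.26 to 9.74 in Lhr null and 8.35 to 8.63 in wild type. That of 8 tested housekeeping genes was 10.38 to 10.60 against 10.10 to 10.30, with 5 called higher and 2 lower. That of 6 tested spermatocyte markers was 11.69 to 12.03 against 11.27 to 11.44, with 2 called higher and 1 lower. The part of any of these lists in the results was not tested. Gstm6, a mu class transferase, was at 8.90, 9.34, 9.07 and 9.52 in wild type and at 10.68, 11.07, 11.34, 11.07 and 11.35 in Lhr null. On double mutant arrays it was at 9.95, 9.55, 9.46, 9.41 and 9.58. No other group reached the Lhr null range, and the difference from wild type of 1.90 ± 0.15 (SE, log2) was a 3.72-fold higher level (adjusted p 1.1e-08). The 2 further Gstm6 probes differed by 1.42 ± 0.14 and 1.74 ± 0.16 (SE, log2). Gsta1 and Gsta2, alpha class enzymes, were higher by 1.09 ± 0.18 and 1.14 ± 0.21 (SE, log2), and Gsta4, which takes up the lipid aldehyde 4-hydroxynonenal, by 0.79 ± 0.15. Gsta1 was at 7.13, 6.63, 6.60 and 7.05 in wild type and at 7.73, 7.88, 7.87, 8.49 and 7.73 in Lhr null, with no overlap.

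Prdx1, a cytosolic peroxiredoxin, was at 11.39, 11.37, 11.61 and 11.23 in wild type and at 12.24, 12.52, 12.59, 12.49 and 12.59 in Lhr null. It was at 11.30 or below in the double mutant and at 11.43 or below on Fshr mutant arrays, so that Lhr null stood above every other array. The difference from wild type was 1.09 ± 0.10 (SE, log2), a 2.12-fold higher level (adjusted p 4.77e-08). Prdx3, the mitochondrial form, was higher by 0.73 ± 0.14 (SE, log2). Prdx2, another cytosolic form, was higher by 1.19 ± 0.12 (SE, log2) on its brightest probe. Its 2 further tested probes differed by -0.15 ± 0.31 and -0.16 ± 0.40 (SE, log2), so the Prdx2 call rests on 1 of 3 probes and was lost when the probes were averaged, with an adjusted p of 0.256.

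Txnrd2, the mitochondrial thioredoxin reductase, was at 6.10, 6.16, 6.47 and 6.22 in wild type and at 6.98, 7.36, 7.51, 7.23 and 7.61 in Lhr null. Txnip, which binds and inhibits thioredoxin, was at 9.37, 10.04, 9.84 and 9.87 in wild type and at 10.57, 10.84, 11.01, 10.73 and 11.04 in Lhr null. For both genes the groups did not overlap. The differences were 1.10 ± 0.13 and 1.06 ± 0.16 (SE, log2; adjusted p 5.61e-07 and 1.23e-05). Txn2, the mitochondrial thioredoxin that Txnrd2 serves, differed the other way, by -0.32 ± 0.09 (SE, log2; adjusted p 0.0033), and this call was lost with median scaling and with no normalization between arrays. Gstt1, a theta class enzyme, was higher by 0.88 ± 0.19 (SE, log2), with Lhr null replicate 4, at 5.74, below the highest wild type array at 5.80.

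**Figure D4:**
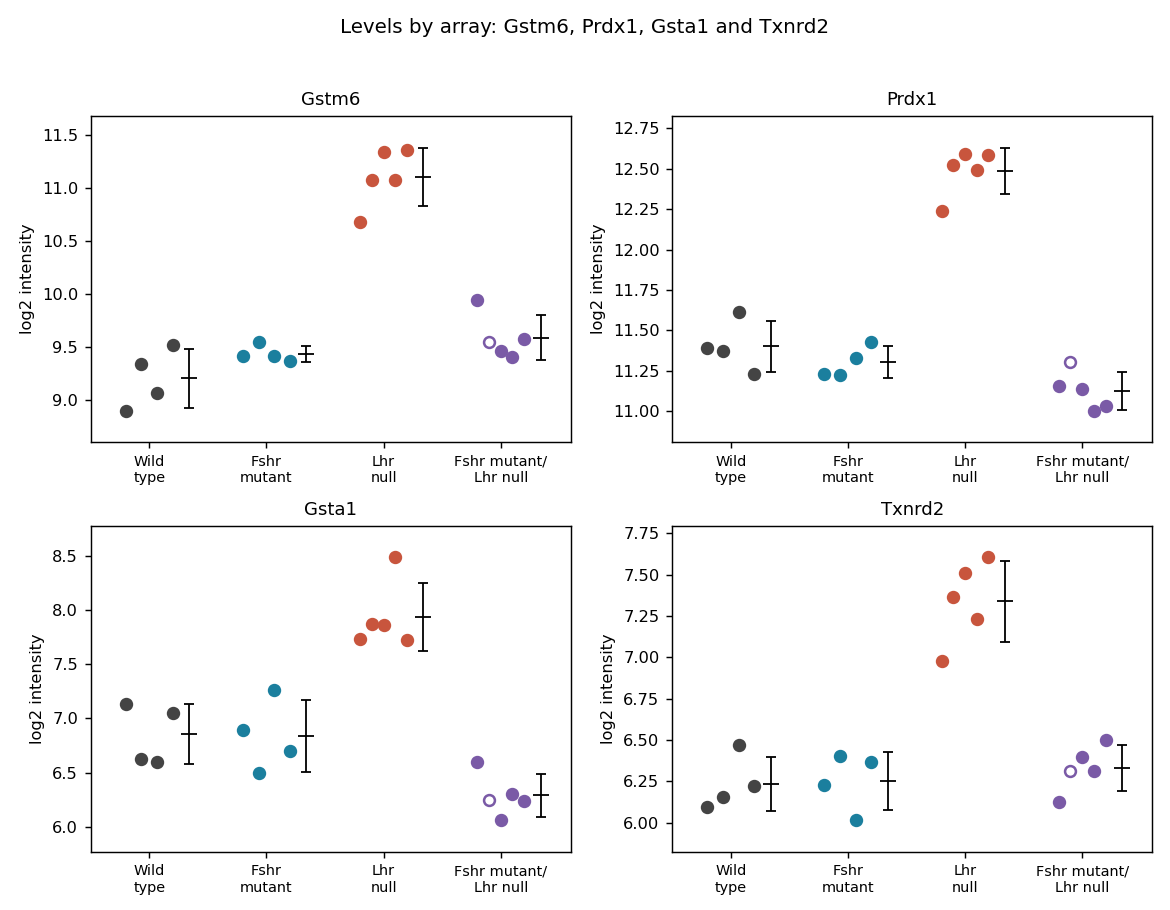
Log2 intensity of Gstm6, Prdx1, Gsta1 and Txnrd2 on each of the 18 arrays, by genotype; points are arrays, the open point is the doubted array, and bars are the group mean ± SD. The 5 Lhr null arrays lie above every other array in all 4 panels.

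By family, the glutathione transferases had 10 genes higher, 7 lower and 5 not called of 22, and the glutathione peroxidases 3 higher, 2 lower and 2 not called of 7. Over all genes 44.2% were higher and 27.0% lower, and nothing particular to a family is read from these counts. Gstp2 among the transferases, detected on 4 Lhr null arrays and on 0 others, and Gpx7 among the peroxidases passed the detection filter only through the group where they are high. Both are included in the counts of called genes here, in double mutant against Lhr null and in the interaction. Their calls are no support for a difference. Of the 4 peroxiredoxins 3 were higher and 1 lower, and of the 6 thioredoxins, reductases and inhibitors 2 were higher and 2 lower. Of the 7 proteins with a thioredoxin domain, 2 were higher and 3 lower, among them Txnl4a and Txnl4b, which are proteins of the splicing machinery rather than of redox defence. Of Sod1 to Sod3 and Cat, only Sod2, the manganese dismutase of mitochondria, was called, at 0.41 ± 0.10 (SE, log2; adjusted p 0.00206), and its sign turned to -0.094 with median scaling and to -0.11 with no normalization between arrays. Sod1, the cytosolic copper-zinc enzyme, was at 11.86 to 12.07 in wild type and at 11.86 to 12.09 in Lhr null, a difference of -0.02 ± 0.11 (SE, log2). That value depended on the scaling. With cyclic loess the difference was -0.21 (adjusted p 0.132), and with no normalization between arrays Sod1 was called lower, at -0.53 (adjusted p 0.0182). Gclm, the modifier subunit of the enzyme that begins glutathione synthesis, was at 8.69 to 8.79 in wild type and 8.96 to 9.47 in Lhr null, a difference of 0.47 ± 0.11 (SE, log2) that was not called with median scaling or with no normalization between arrays. Cat was detected on 4 of 18 arrays and Txnrd1 on 7, and neither was called in any comparison.

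Gsta3, Gstm1 and Mgst1 were lower in the double mutant than in wild type, while the spermatid genes above were not called there. In the double mutant against wild type, 3 of the 51 genes were called, 5.88% against 1.28% of all genes. All 3 were lower, where 0.843% of all genes were. The count rested on few arrays: it was 0 when replicate 3 of wild type, replicate 3 of the double mutant or replicate 5 of the double mutant was left out. It was 1 without replicate 1 of either group, 5 without Lhr null replicate 1 and 4 without the doubted array. Between double mutant and wild type, 48 genes were not called, the sperm thioredoxins included, with differences of -0.07 ± 0.34 for Txndc2 and -0.02 ± 0.21 for Txndc8 (SE, log2).

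Gsta3, an alpha class enzyme whose human counterpart isomerises steroid precursors of testosterone, was at 11.15, 10.50, 11.24 and 10.82 in wild type. It was at 11.03, 9.85, 10.88 and 10.64 in Fshr mutant arrays and at 9.74, 10.04, 9.97, 9.54 and 9.92 in Lhr null. Its double mutant levels were 8.72, 8.41, 8.89 and 8.43, and 10.74 on the doubted array. The 4 other double mutant arrays lay below all other arrays, Lhr null included, and the fifth lay within the wild type range. The double mutant differed from wild type by -1.89 ± 0.37 (SE, log2; 3.71-fold lower; adjusted p 0.0221), and by -2.31 ± 0.22 (adjusted p 1.63e-05) without that array. Lhr null differed from wild type by -1.09 ± 0.37 (SE, log2; adjusted p 0.013). Against Lhr null the double mutant was lower still, by -0.80 ± 0.34 (SE, log2; adjusted p 0.0429), a call that 13 of 31 alternatives ended, and by -1.23 ± 0.21 (adjusted p 5.72e-05) without the array. A second, dim Gsta3 probe, detected on 3 wild type arrays and on 1 array each of Lhr null and the double mutant, was lower in Lhr null than in wild type by -0.90 ± 0.28 (SE, log2; adjusted p 0.00748). On that probe the double mutant was not called, at -1.03 ± 0.28 (adjusted p 0.0803) against wild type and -0.14 ± 0.26 (adjusted p 0.651) against Lhr null, so both double mutant calls rest on 1 of 2 probes.

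Gstm1, a cytosolic mu class enzyme, was at 11.37, 10.86, 11.62 and 10.94 in wild type and at 10.64, 10.76, 10.48, 11.25 and 10.61 in Lhr null. In the double mutant it was at 9.97, 9.53, 9.84 and 9.63, and at 10.99 on the doubted array. Those 4 arrays were again the lowest of all 18. The double mutant differed from wild type by -1.20 ± 0.25 (SE, log2; 2.30-fold lower; adjusted p 0.0288), and by -1.45 ± 0.19 (adjusted p 0.000701) without the array. Lhr null differed from wild type by -0.45 ± 0.25 (SE, log2), not called with all arrays (adjusted p 0.121) and called without the array, at -0.45 ± 0.18 (adjusted p 0.039), and with each of the 3 other scalings.

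Mgst1, a membrane enzyme with transferase and peroxidase activity, took a different course. It was at 9.08, 9.22, 9.60 and 8.95 in wild type and higher, at 9.61, 9.83, 9.80, 9.44 and 10.12, in Lhr null. In the double mutant it was at 8.32, 8.68, 8.39, 8.52 and 8.24, below every array of the other groups, the doubted array included. The double mutant differed from wild type by -0.78 ± 0.14 (SE, log2; 1.72-fold lower; adjusted p 0.0201), and by -0.84 ± 0.15 (adjusted p 0.00485) without that array. A second, dimmer Mgst1 probe differed by -0.27 ± 0.73 (SE, log2), and the call was lost when both were averaged. Lhr null was higher than wild type by 0.55 ± 0.14 (SE, log2), with overlapping arrays, a call lost under each of the 3 other scalings and when the probes were averaged.

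Gstm2, a mu class enzyme named here after its values were seen, was at 12.37, 12.02, 12.18 and 12.21 in the double mutant and at 13.06 on the doubted array. Wild type arrays were at 12.99, 13.17, 13.44 and 12.77. The difference of -0.72 ± 0.19 (SE, log2) was not called (adjusted p 0.0689), and without the array it was -0.90 ± 0.15 (adjusted p 0.00424). The 2 further Gstm2 probes differed by -0.58 ± 0.18 and -0.61 ± 0.20 (SE, log2) with all arrays, neither called. Without the doubted array, 4 genes were thus called. Gstk1, a kappa class enzyme of mitochondria and peroxisomes, was at 8.23, 8.65, 9.12 and 8.17 in wild type and at 7.40, 7.56, 7.76, 7.01 and 7.49 in Lhr null, a difference of -1.10 ± 0.22 (SE, log2; adjusted p 0.000209). Double mutant arrays were at 8.10, 8.34, 7.21, 8.07 and 7.88, overlapping both, and its difference from wild type of -0.62 ± 0.22 (SE, log2) was not called. A second Gstk1 probe differed by -0.83 ± 0.76 (SE, log2; adjusted p 0.341) in Lhr null and by 0.04 ± 0.76 in the double mutant, so the call in Lhr null rests on 1 of 2 probes.

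Of 5 tested Leydig markers, 5 were lower in Lhr null than in wild type, with a median log2 difference of -3.03, and 5 were lower in the double mutant, with a median of -1.56. Between double mutant and Lhr null, 2 of the 5 markers were higher and 0 lower, with a median of 0.73. Gsta3, Gstm1, Gstm2 and Mgst1 were called lower there on their brightest probes. Gstm1 was at -0.75 ± 0.24 and Gstm2 at -0.96 ± 0.18 (SE, log2). The Gsta3 call was lost with cyclic loess and that of Gstm1 with median scaling. The second probes of Gsta3 and Mgst1, at -0.14 ± 0.26 and -0.24 ± 0.69 (SE, log2), were not called. These marker counts and medians include the doubted array, whose Leydig marker level was the highest of its group. On the 4 other double mutant arrays the mean level of the markers was 7.10 to 7.38. That level was 6.50 to 6.70 in Lhr null and 9.07 to 9.85 in wild type. In Lhr null against wild type, the brightest Mgst1 probe was higher, a call lost under each of the 3 other scalings. The second Mgst1 probe differed by -0.02 ± 0.73 (SE, log2). Gstm2 was not called on its brightest probe, at 0.24 ± 0.19 (SE, log2) and at -0.21 with no normalization between arrays. Its probe ILMN_1251449 was called higher, at 0.46 ± 0.18 (adjusted p 0.0306), and ILMN_2862470, at 0.25 ± 0.20, was not called. Hsd17b3 and Star were detected on no Lhr null array. The summed intensity of the 5 markers was 13549 to 19034 on wild type arrays, 966 to 1904 in Lhr null and 3276 to 4481 on the 4 other double mutant arrays, and 11040 on the doubted array. Of the macrophage, Sertoli, spermatid, spermatocyte and spermatogonium markers none was called between double mutant and wild type. The part of Leydig cells in the levels of Gsta3, Gstm1, Mgst1, Gstm2 and Gstk1 was not tested.

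**Figure D5:**
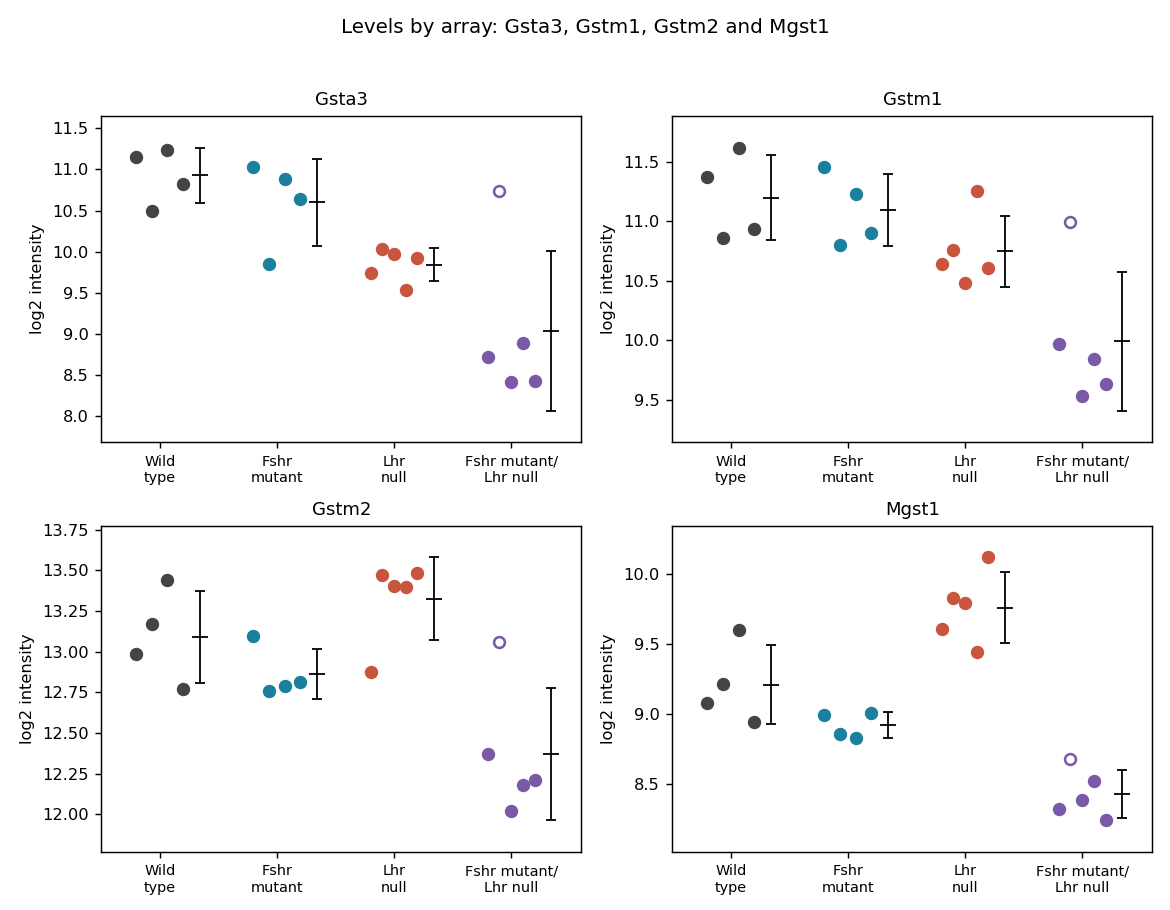
Log2 intensity of Gsta3, Gstm1, Gstm2 and Mgst1 on each of the 18 arrays, by genotype; points are arrays, the open point is the doubted array, and bars are the group mean ± SD. The filled double mutant points are the lowest in all 4 panels, and the open point stands at 10.74, 10.99 and 13.06 for Gsta3, Gstm1 and Gstm2, and at 8.68 for Mgst1.

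The double mutant against Lhr null asks what the Fshr allele does where Lhr is absent. Here 41 of the 51 genes were called, 80.4% against 74.2% of all genes. They were 13 higher, 25.5% against 29.3%, and 28 lower, 54.9% against 45.0%. The median log2 difference was -0.41 for the defence genes and -0.21 for all genes. Of the 41 signs 40 were the same under the 3 other scalings, with that of Txn2 turned, and 30 calls held under all 3. Without the doubted array there were 12 higher and 27 lower.

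The sperm thioredoxins were higher in the double mutant than in Lhr null, Txndc2 by 2.51 ± 0.32 (5.70-fold) and Txndc8 by 1.58 ± 0.19 (2.99-fold; SE, log2). Mgst2 was higher by 2.18 ± 0.22, Gstt4 by 1.69 ± 0.17 and Gpx6 by 1.28 ± 0.22 (SE, log2). The farthest lower were Gsta1 at -1.65 ± 0.17 (3.13-fold; adjusted p 1.16e-07), Gstm6 at -1.51 ± 0.14, Gsta2 at -1.48 ± 0.20, Prdx1 at -1.36 ± 0.09 (2.57-fold; adjusted p 2.02e-09) and Mgst1 at -1.33 ± 0.13 (SE, log2). The second Mgst1 probe was not called, at -0.24 ± 0.69 (SE, log2; adjusted p 0.76), so this Mgst1 call rests on 1 of 2 probes. Gpx1, the cytosolic glutathione peroxidase, was lower by -0.78 ± 0.15 (SE, log2). Its double mutant levels were 9.56, 9.49, 9.51 and 9.45, and 9.96 on the doubted array, against 10.20, 10.78, 10.39, 10.05 and 10.44 in Lhr null.

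Some called genes were detected on no double mutant array, so that only a bound can be given. The level in Lhr null was at least 1.45-fold higher for Gpx7, a peroxidase of the endoplasmic reticulum. Gpx7 was detected on 5 of 5 Lhr null arrays, 2 of 4 wild type arrays and 0 of the others, so that it was tested only through the group where it is high, and its call is no support for a difference. The level in Lhr null was at least 1.29-fold higher for Gpx2, known from the gut lining, and at least 1.34-fold for Txn1, the cytosolic thioredoxin. The Txn1 bound is on the group mean, which Lhr null replicate 4, at 7.25, raises. Lhr null replicate 5, at 5.32, lies below the 5.62 that the bound uses for the double mutant. Txn1 was dim: its Lhr null levels were 5.71, 6.09, 5.87, 7.25 and 5.32, it was detected on 3 of 4 wild type, 1 of 4 Fshr mutant and 5 of 5 Lhr null arrays, and its difference between Lhr null and wild type was not called. Sod3, the extracellular dismutase, was lower by -0.41 ± 0.18 (SE, log2; adjusted p 0.0482), a call that 20 of 31 alternatives ended.

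With Lhr intact, no effect of the Fshr allele passed the test. In Fshr mutant against wild type limma called 0 of the 51 genes, as it did 0 of all genes, a share of 0%. At an unadjusted p under 0.05 there were 2 defence genes and 437 genes in all. The 51 log2 differences ran from -0.49 ± 0.32 (SE) for Txn1 to 0.23 ± 0.25 (SE) for Mgst2. Between double mutant and Fshr mutant 0 of the 51 were called, against 0.0278% of all genes, with 7 defence genes and 684 in all at an unadjusted p under 0.05. Without the doubted array, Gsta3 was lower than in Fshr mutant arrays by -1.98 ± 0.22 (adjusted p 0.000219) and Gstm1 by -1.35 ± 0.19 (adjusted p 0.00233; SE, log2). With it, the differences were -1.56 ± 0.37 (adjusted p 0.172) and -1.10 ± 0.25 (adjusted p 0.16).

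The interaction tests whether the effect of the Fshr allele differed between testes with and without Lhr. It was called for 31 of the 51 genes, 60.8% against 60.1% of all genes: 11 were above 0, 21.6% against 23.2%, and 20 below, 39.2% against 36.9%. The 31 signs were the same under the 3 other scalings, and 20 of the calls held under all 3. Without the doubted array 10 were above and 22 below. Both sperm thioredoxins were above 0, Txndc2 at 2.52 ± 0.48 (adjusted p 0.000235) and Txndc8 at 1.61 ± 0.29 (adjusted p 0.000146; SE, log2). Mgst2 was at 1.94 ± 0.33 and Gstt4 at 1.72 ± 0.26. Gstm6 was at -1.75 ± 0.21, Gsta1 at -1.63 ± 0.25, Prdx2 at -1.29 ± 0.17 and Prdx1 at -1.26 ± 0.14. The Prdx2 value rests on 1 of 3 probes, as the 2 others were at 0.11 ± 0.44 and -0.09 ± 0.57, not called. For Gsta3 the interaction was -0.48 ± 0.52 and not called (adjusted p 0.439), and without the doubted array it was -0.90 ± 0.30 (adjusted p 0.018). For Gstm1 it was -0.66 ± 0.36 (adjusted p 0.122) and, without that array, -0.90 ± 0.27 (adjusted p 0.00854).

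A list of 60 genes around these families, which supply glutathione and NADPH, reduce other proteins or belong to the Nrf2 response, had 46 tested. In Lhr null against wild type 18 were higher and 14 lower, beside shares of 44.2% and 27.0% of all genes, with a median log2 difference of -0.07 against 0.21 for all genes. In the double mutant against Lhr null 13 were higher and 21 lower, beside 29.3% and 45.0% of all genes. Among the called genes, the lowest in Lhr null were Gstcd, a protein with a transferase-like domain, at -3.18 ± 0.25, Nqo2, a quinone reductase, at -3.14 ± 0.28, Srxn1, the sulfiredoxin that repairs overoxidised peroxiredoxins, at -2.55 ± 0.27, and Glrx2, a glutaredoxin, at -2.42 ± 0.22 (SE, log2). Levels of Srxn1 averaged 9.48 ± 0.18 (SD, n = 4) in wild type arrays, 6.92 ± 0.78 (SD, n = 5) on Lhr null arrays and 9.46 ± 0.20 (SD, n = 5) on double mutant arrays. Among the called genes, the highest were Sesn1, a sestrin, at 1.06 ± 0.11, Mafg, a small Maf partner of Nrf2, at 0.96 ± 0.14, Glo1, which removes methylglyoxal, at 0.87 ± 0.15, and Park7, a redox-sensitive chaperone, at 0.87 ± 0.12 (SE, log2). The call of Park7 was lost with no normalization between arrays.

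Nfe2l2, which encodes Nrf2, was higher in Lhr null by 0.72 ± 0.20 (SE, log2; adjusted p 0.00417). Nfe2l2 was dim, with a mean level of 5.64 in wild type and 6.36 in Lhr null, and was detected on 3 wild type and 5 Lhr null arrays. Keap1, the repressor of Nrf2, was lower by -0.31 ± 0.11 (adjusted p 0.0125), not called with array weights or with no normalization between arrays. Nqo1, a target of Nrf2, was detected on no Lhr null array and not called, and Hmox1 was not tested. In the double mutant against wild type 2 of the 46 were called, both lower: Idh1, a source of cytosolic NADPH, at -1.06 ± 0.16 (adjusted p 0.011), and Glrx, a cytosolic glutaredoxin, at -1.04 ± 0.21 (adjusted p 0.0236; SE, log2). The Glrx call was lost under 8 of 31 alternatives and that of Idh1 under 0. Glrx was lower in Lhr null too, by -0.91 ± 0.21 (SE, log2), and Idh1 was not called there, at -0.25 ± 0.16 (SE, log2).

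Some related members that are neighbours on a chromosome lay on opposite sides of 0 in Lhr null against wild type. Gstt1 and Gstt4 on chromosome 10 have 0 annotated genes between them, and differed by 0.88 and -1.70. Gstt1 was dim, detected on 2 wild type and 5 Lhr null arrays. Gsto1 and Gsto2 on chromosome 19, also with 0 genes between them, differed by 0.48, a call that did not hold under all 3 other scalings, and -0.72. Txn1 and Txndc8 on chromosome 4 have 1 annotated gene between them, Gm35344, and differed by 0.30, not called, and -1.60 (log2). Gstm6 and Gstm7 on chromosome 3, in contrast, were both higher, by 1.90 and 0.75. The 250 bases before the annotated start of each gene of the first 3 pairs are shown. They are the nearest sequence in which neighbours on opposite sides of 0 can be compared. They are from RefSeq, build GRCm38.p6, and were found at chr10:75797732-75797981 on the minus strand for Gstt1 and chr10:75822544-75822793 on the minus strand for Gstt4. For Gsto1 it is chr19:47854723-47854972 on the plus strand, and for Gsto2 chr19:47865295-47865544 on the plus strand. For Txn1 it is chr4:57956412-57956661 on the minus strand, and for Txndc8 chr4:58009127-58009376 on the minus strand. Each is written 5′ to 3′ on the strand of its gene, with CG dinucleotides in capitals.
Gstt1: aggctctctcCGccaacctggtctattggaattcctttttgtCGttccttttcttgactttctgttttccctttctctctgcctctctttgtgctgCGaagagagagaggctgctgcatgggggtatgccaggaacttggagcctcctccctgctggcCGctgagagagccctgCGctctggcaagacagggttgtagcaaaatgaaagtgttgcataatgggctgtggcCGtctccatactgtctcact
Gstt4: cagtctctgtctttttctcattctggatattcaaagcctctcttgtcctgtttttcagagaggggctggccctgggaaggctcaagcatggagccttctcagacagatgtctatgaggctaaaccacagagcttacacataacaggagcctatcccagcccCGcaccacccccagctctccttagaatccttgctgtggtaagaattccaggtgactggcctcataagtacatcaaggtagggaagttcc
Gsto1: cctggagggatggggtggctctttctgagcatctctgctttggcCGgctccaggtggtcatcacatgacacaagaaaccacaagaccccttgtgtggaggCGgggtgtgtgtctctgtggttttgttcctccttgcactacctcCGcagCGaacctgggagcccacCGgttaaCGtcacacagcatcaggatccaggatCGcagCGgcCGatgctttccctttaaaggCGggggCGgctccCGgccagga
Gsto2: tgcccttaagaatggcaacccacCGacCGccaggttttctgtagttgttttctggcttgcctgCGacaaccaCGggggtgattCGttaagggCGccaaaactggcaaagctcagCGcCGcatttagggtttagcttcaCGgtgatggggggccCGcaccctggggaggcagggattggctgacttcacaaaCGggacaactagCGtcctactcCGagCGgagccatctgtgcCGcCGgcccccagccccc
Txn1: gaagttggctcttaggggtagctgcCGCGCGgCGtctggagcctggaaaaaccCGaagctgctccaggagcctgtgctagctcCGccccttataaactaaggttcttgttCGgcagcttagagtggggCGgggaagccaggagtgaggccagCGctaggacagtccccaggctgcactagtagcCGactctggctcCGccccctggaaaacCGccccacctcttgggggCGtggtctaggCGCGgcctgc
Txndc8: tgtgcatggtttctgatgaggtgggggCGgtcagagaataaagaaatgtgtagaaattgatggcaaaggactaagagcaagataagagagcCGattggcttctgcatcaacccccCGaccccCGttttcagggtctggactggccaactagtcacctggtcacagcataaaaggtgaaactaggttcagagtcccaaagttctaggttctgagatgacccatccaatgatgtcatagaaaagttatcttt

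The sequence before Gstt4 holds 1 CG and that before Gstt1 holds 6. For Txndc8 and Txn1 the numbers are 4 and 15. Gsto2 and Gsto1 do not share that order, with 16 and 12. The median over 27025 promoters of the same length was 6, and over the 54 defence genes with a promoter that RefSeq lists was 10.5. The motif TGACNNNGC, the core of the antioxidant response element that Nrf2 binds, was searched on both strands. It was found before 7 of the 54 genes, 13%, and before 10.1% of all genes. The 7 are Gclm, Gsta3, Gstm5, Mgst1, Prdx1, Sod1 and Txndc11. In Lhr null against wild type Gclm, Mgst1 and Prdx1 were higher, Gsta3 and Gstm5 lower, Sod1 not called and Txndc11 not tested. The cyclic AMP response element TGACGTCA was found before 1 of the 54, Txnl4b, and before 1.6% of all genes. None of the 6 sequences shown holds either motif.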

How the data were processed

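Total RNA of whole testis was read on 18 Illumina bead arrays. The deposited table holds bead intensities that the authors did not normalize, and a detection p-value per probe, per the file headers. A second deposited table of the authors holds processed intensities on a linear scale, whose normalization no source used here states, with array medians from 61.6 to 61.7; it served as an alternative. GenomeStudio 1.7.0 is named in the submitters' processing notes, and no scan slide is given.

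Intensities were corrected for background with limma's normexp on the detection p-values (offset 16), quantile normalized and taken to log2 (limma 3.58.1, R 4.3.3). Of 45281 probes, 34885 had 1 gene symbol, 18 several and 10378 none; symbols came from the platform annotation, updated through RefSeq. Probes with a detection p below 0.01 on 4 arrays or more were kept, and the brightest stood for its gene. A linear model with a mean for each of the 4 genotypes was fitted to all 18 arrays, so that the groups share 1 estimate of spread, with moderated SE and p adjusted by Benjamini-Hochberg over 10798 genes. The interaction is the double mutant minus Lhr null difference, less the Fshr mutant minus wild type difference. Lhr null against wild type and double mutant against Lhr null share the Lhr null arrays. A gene detected on no array of a group has only a bound there: the bright group's mean was set against, averaged over arrays, the higher of the gene's own level and the lowest level of a detected probe. Differences per gene follow the model's log2 scale, and levels of different probes are not compared. The number of arrays limits the precision. The script was tested on simulated data.

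The members and the gene lists were chosen with earlier results of these data known. Named genes are Txndc2, Txndc8, a fixed set of central enzymes and the 8 called members farthest from 0 in each direction and comparison. Gpx2, Gpx7, Gsta4, Gsto1, Gstm2, Gstm7 and Prdx3 were named after their values were seen. Alternatives covered background correction, normalization, filters, the probe rule, array weights, the replicate block, the samples fitted and each array left out. Replicate numbers did not pair the samples. Promoters are RefSeq's.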

Additional observations from a re-analysis of the deposited data

Results flagged for a closer look

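Within the groups of 4 or 5 arrays, 124 groups of arrays (31 named genes in 4 genotypes) were examined for 1 array far from the rest, and 12 had one. Chance alone sets an array apart in about 1 of 20 such groups. On replicate 2 of the arrays labelled Fshr mutant/Lhr null, Gsta3 stood at 10.74, where the other double mutant arrays were between 8.41 and 8.89, and Gpx1 at 9.96, where they were between 9.45 and 9.56 (log2 intensity). On Lhr null replicate 4, Cat stood at 5.79 above 4.89 to 5.14 and Gsta1 at 8.49 above 7.73 to 7.88. On the same array Gstt1 stood at 5.74 below 6.37 to 6.61 and Prdx4 at 11.97 below 12.43 to 12.57. Lhr null replicate 1 had Prdx1 at 12.24, below 12.50 to 12.59. Fshr mutant/Lhr null replicate 4 had Txndc8 at 12.82, above 12.37 to 12.48, and Txnrd1 at 5.86, above 4.54 to 4.59. Wild type replicate 2 had Gstt4 at 12.93, below 13.12 to 13.14. Wild type replicate 4 had Mgst2 at 7.99, below 8.33 to 8.38. Fshr mutant replicate 2 had Txn2 at 7.65, above 7.52 to 7.53.

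For 23 named genes the effect of the Fshr allele differed between testes without and with Lhr, by the interaction term of the limma model. It was above 0, so that the allele's effect was more positive without Lhr, for Txndc2 at 2.52 ± 0.48 (SE, log2), Mgst2 at 1.94 ± 0.33, Gstt4 at 1.72 ± 0.26, Txndc8 at 1.61 ± 0.29, Gpx6 at 1.21 ± 0.33 and Gsto2 at 0.75 ± 0.16. Smaller values above 0 were those of Prdx4 at 0.65 ± 0.14, Mgst3 at 0.53 ± 0.18, Gpx4 at 0.49 ± 0.14, Txn2 at 0.35 ± 0.12 and Txnrd3 at 0.25 ± 0.10, the last with an adjusted p of 0.043 that 16 of 30 alternatives moved past the threshold. It was below 0 for Gstm6 at -1.75 ± 0.21, Gsta1 at -1.63 ± 0.25, Gsta2 at -1.58 ± 0.30, Prdx2 at -1.29 ± 0.17 on 1 of its 3 probes, Prdx1 at -1.26 ± 0.14 and Txnip at -1.10 ± 0.23. The others below 0 were Mgst1 at -1.04 ± 0.20, Txnrd2 at -1.03 ± 0.18, Gstt1 at -1.02 ± 0.27, Gpx1 at -0.64 ± 0.22, Gclm at -0.60 ± 0.15 and Sod2 at -0.44 ± 0.15. The second Mgst1 probe was at 0.64 ± 1.03 and not called. The interaction calls of Gclm, Gpx1, Gpx4, Mgst3, Sod2, Txn2 and Txnrd3 were each lost under at least 1 of the 3 other scalings. With median scaling Sod2 was at -0.04 and Txn2 at 0.19.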

How the results depend on the processing

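The counts of called defence genes between Lhr null and wild type, between double mutant and Lhr null and in the interaction stayed within 1.5 times under every alternative run. The count between double mutant and wild type, 3, did not: it was 7 with array weights, 1 with only the arrays of the groups compared, 0 with the replicate block, and 0 to 5 with each array left out. Between double mutant and Fshr mutant it was 3 with array weights and, over the arrays left out, 0 to 2. The cause was not tested. Of single genes, Sod2 in Lhr null against wild type turned to -0.094 with median scaling and -0.11 with no normalization between arrays, and Txn2 in double mutant against Lhr null to -0.10 with the latter. With the replicate block the counts were 34, 39 and 30 for the first 3 comparisons. The numbers showed no pairing: of 25 pairs of the same number 5 had a correlation of deviations over 0.1 (range -0.316 to 0.215), and 6 of 18 samples correlated best with their own number. Of all calls, the higher share was 62% in Lhr null against wild type and 50.6% with cyclic loess. In double mutant against Lhr null it was 39.4%, and 27.9% with no normalization between arrays. It was 34.1% and, with median scaling, 2.38% between double mutant and wild type, and 38.6% and, with cyclic loess, 50.3% in the interaction. A slide block was not run, as no slide is given, and a fit of only the groups compared gives no interaction. Genes near background, such as Cat, Txn1 and Txnrd1, have levels that this signal hardly resolves.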
